A study of Mus musculus with 8 samples.

Results

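Priming with hydrocortisone is the middle of 3 states through which HC11 mouse mammary epithelial cells were taken towards milk production, and 4464 genes stood outside the range of both neighbouring states at that point. Of 24062 genes listed, 11791 had at least 1 FPKM (fragments per kilobase of exon, scaled to the depth of the library) in at least 2 of the 6 HC11 libraries. Among these, 3333 were higher in both primed (P) libraries than in all 4 libraries of normal (N) and prolactin-treated (PRL) cells, which is 28.3% of the genes tested, and 1131 were lower, which is 9.59%. This order of values chose the genes, and 2 libraries against 4 cannot reach an exact permutation p below 0.133, so these counts are a description with no test. A smaller set passed a threshold of size and a test of difference: 62 genes (0.526% of those tested) rose and 8 (0.0678%) fell at priming, with P at least 1 on the log2 scale from N and from PRL and an adjusted p under 0.001 from limma in both comparisons. The p-values are for any difference, not for a distance of at least 1. The words rose and fell are kept for these calls. That the 70 called genes are all among the 4464 follows from the rule and is no further support. Of the 62, 36 were called whichever of the 6 libraries was left out, and of the 8, 4 were.

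The study followed the HC11 line, derived from the COMMA-1D mammary cells of Balb/c mice, with 2 libraries in each state. N cells were grown to confluence with EGF and insulin. P cells then received hydrocortisone and insulin without EGF for 48 hours, and PRL cells were primed cells given fresh medium with hydrocortisone, insulin and prolactin and collected 72 hours later. R1 embryonic stem cells (ESC), cultured over feeder cells in medium with LIF, serum and the 2i inhibitors, gave 2 further libraries, used here only as an outside reference. Between N and P the EGF, hydrocortisone, serum and time all changed, and between P and PRL the prolactin, medium and time, so these cannot be told apart in either direction. HC11 is 1 clonal line in culture, and the 2 libraries of a state are not stated to be separate cultures. The p-values therefore reflect only how far these libraries differ from each other, which may be technical. The HC11 libraries held 22903215 to 33916913 fragments, and in a transcript of 1 kb 1 fragment corresponded to 0.0295 to 0.0437 FPKM. Of the 12 luminal mammary markers 9 were tested, and of 10 basal markers 8. The summed level of the luminal markers was 896 and 865 FPKM in N, 1061 and 1099 in P and 1360 and 1399 in PRL. That of the basal markers was 4418 and 4326 FPKM in N, 1093 and 1127 in P and 653 and 701 in PRL, so basal markers had the higher sum in N and luminal markers in PRL. The summed level of 7 embryonic stem cell markers was at most 0.761 FPKM in any HC11 library, and none of these was tested.

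Lactogenic differentiation of HC11 cells depends on the order of the hormones. EGF keeps the cells growing, glucocorticoid given after its withdrawal makes them competent for prolactin, and prolactin acting through STAT5 then turns on the casein genes. Glucocorticoid receptor is itself a transcription factor that binds DNA with hormone, and many of its targets serve fuel use, stress responses and the control of growth.

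Most of the genes that stood higher in P were at similar levels on either side. For 2564 of the 3333 the means of N and PRL lay within 0.5 of each other on log2(FPKM + 1), and for 185 they lay more than 1 apart. Among the 62 that rose, 51 had N and PRL within 0.5 and 4 had them more than 1 apart. The same shares were not counted over all genes tested, so they are not read as particular to these genes. The differences were small for most: the smaller of the 2 distances of P, from N and from PRL, had a median of 0.28 in the higher genes and −0.20 in the lower ones, and reached 1 in 91 and 8 of them. Over all genes tested the median of P minus N was 0.04 and that of P minus PRL was 0.19, so the middle of the distribution sat higher in P than in PRL. The summed FPKM of P was lower, at 465918 and 468246, against 504727 and 506972 in N and 489846 and 506484 in PRL. When the 6 libraries were rescaled by median ratios, which brought the median of P minus PRL to 0.00, 2271 genes were higher (19.3%) and 2175 lower (18.4%), against 28.3% and 9.59% before. All of the 2271 were among the 3333 and all of the 1131 among the 2175. With quantile normalization 2162 genes were higher (18.3%) and 2111 lower (17.9%). Genes near the edge of the rule show how thin it can be: Ncoa5 stood at 21.8 and 23.2 FPKM in N, 23.2 and 24.4 in P and 18.3 and 17.6 in PRL, just inside the higher set. Actr1b, at 68.9 and 64.6 FPKM in N, 58 and 58.1 in P and 58.1 and 58.2 in PRL, was just inside the lower set and Uqcr10, at 267 and 260.0 FPKM in N, 256 and 260.0 in P and 282 and 309 in PRL, just outside it.

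**Figure D1:**
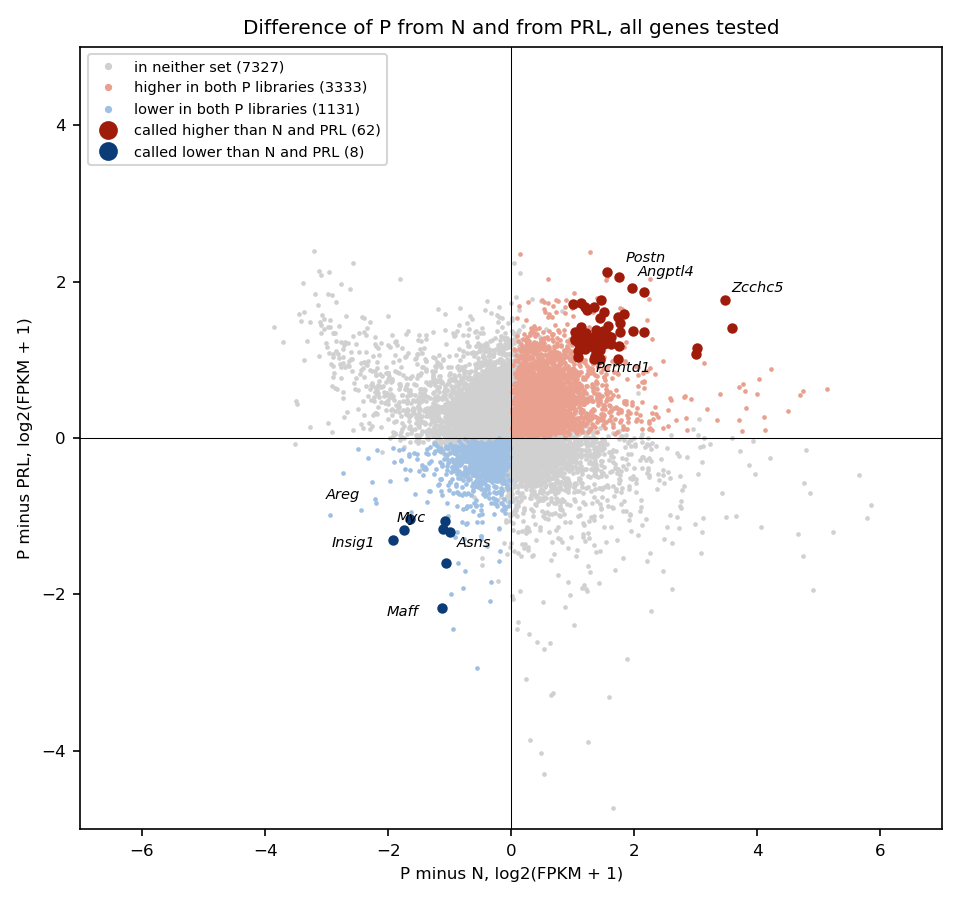
Each point is 1 of the 11791 genes tested, with the mean difference of P from N (horizontal axis) and from PRL (vertical axis) on log2(FPKM + 1). Genes higher in both P libraries (3333) fill the upper right and genes lower in both (1131) the lower left, dark points are the 62 and 8 called genes, and 1 gene lies outside the axes.

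Of the 4 marker genes, 3 rose at priming and 1 was lower without being called. Angptl4, a secreted inhibitor of lipoprotein lipase on chromosome 17 (33774900 to 33781575, GRCm38), had 8.42 and 7.53 FPKM in N, 33.5 and 34 in P and 8.24 and 8.18 in PRL. The N and PRL libraries lay together and both P libraries far above them, with a log2 difference of 1.96 from N (SE 0.07, adjusted p = 4.13e-08, limma) and 1.92 from PRL (adjusted p = 3.53e-07, limma). Pcmtd1, an adaptor of ubiquitin ligases that resembles protein isoaspartate methyltransferase, on chromosome 1 (7087077 to 7173628, GRCm38), had 11.5 and 12.5 FPKM in N, 30.2 and 30.8 in P and 12.9 and 12.6 in PRL. It rose by 1.28 and 1.20 against N and PRL (SE 0.06, adjusted p = 2.7e-07 and 1.9e-06, limma). Its relative Pcmtd2, at 12.4 and 13.6 FPKM in N, 24.9 and 24 in P and 13.3 and 13.3 in PRL, had the same order with differences of 0.86 and 0.83, under the threshold of 1. Pcmt1, the methyltransferase that repairs isoaspartate, was in the lower set by a narrow margin, with 27.8 and 30.5 FPKM in N, 26.3 and 27.6 in P and 27.9 and 27.6 in PRL. Chd9, a chromatin remodelling ATPase on chromosome 8 (90828302 to 91054516, GRCm38), had 2.93 and 3.17 FPKM in N, 10.04 and 10.1 in P and 4.39 and 4.62 in PRL, and PRL stayed above N. Its distance from PRL, 1.01 (adjusted p = 9.01e-06, limma), was just past the threshold and was 0.98 without PRL replicate 1.

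Areg, the EGF receptor ligand amphiregulin on chromosome 5 (91139599 to 91148432, GRCm38), went the other way, with 5.51 and 5.39 FPKM in N, 0.278 and 0.509 in P and 1.34 and 1.43 in PRL. Its distance from N was −2.22 (SE 0.10, adjusted p = 2.67e-07, limma) and from PRL −0.78 (adjusted p = 0.000236, limma), so it was not called, and it returned only in part. Amphiregulin is the ligand that drives duct growth in the mammary gland and is known to respond to cyclic AMP. Its promoter is shown because 1 cyclic AMP response element, TGACGTCA, lies in it, starting 61 bases before the annotated start, in capitals here (RefSeq, GRCm38.p6, chr5:91139349-91139648, plus strand).
Areg promoter: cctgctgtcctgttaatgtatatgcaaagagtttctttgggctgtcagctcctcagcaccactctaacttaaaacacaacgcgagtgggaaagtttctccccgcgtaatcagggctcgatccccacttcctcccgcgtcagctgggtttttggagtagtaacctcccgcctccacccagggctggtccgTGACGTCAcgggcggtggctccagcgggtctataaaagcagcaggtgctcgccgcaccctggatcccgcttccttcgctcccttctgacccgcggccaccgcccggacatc
On either strand this motif is in the same window of 341 of 8749 tested genes with a promoter sequence (3.90%), in 100 of 2435 higher genes (4.11%) and in 36 of 862 lower genes (4.18%), so its share in both sets was close to that of all genes. Of the 8 EGF family ligands and receptors tested, Erbb2, the receptor with no known ligand, and its partner Erbb3 were higher in both P libraries and Areg was the only one lower. These shares, 25% and 12.5%, were near the 28.3% and 9.59% of all genes. Erbb3 had 10.7 and 11.1 FPKM in N, 12.4 and 13 in P and 8.35 and 8.30 in PRL, a difference of 0.20 from N that is well under the threshold.

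**Figure D2:**
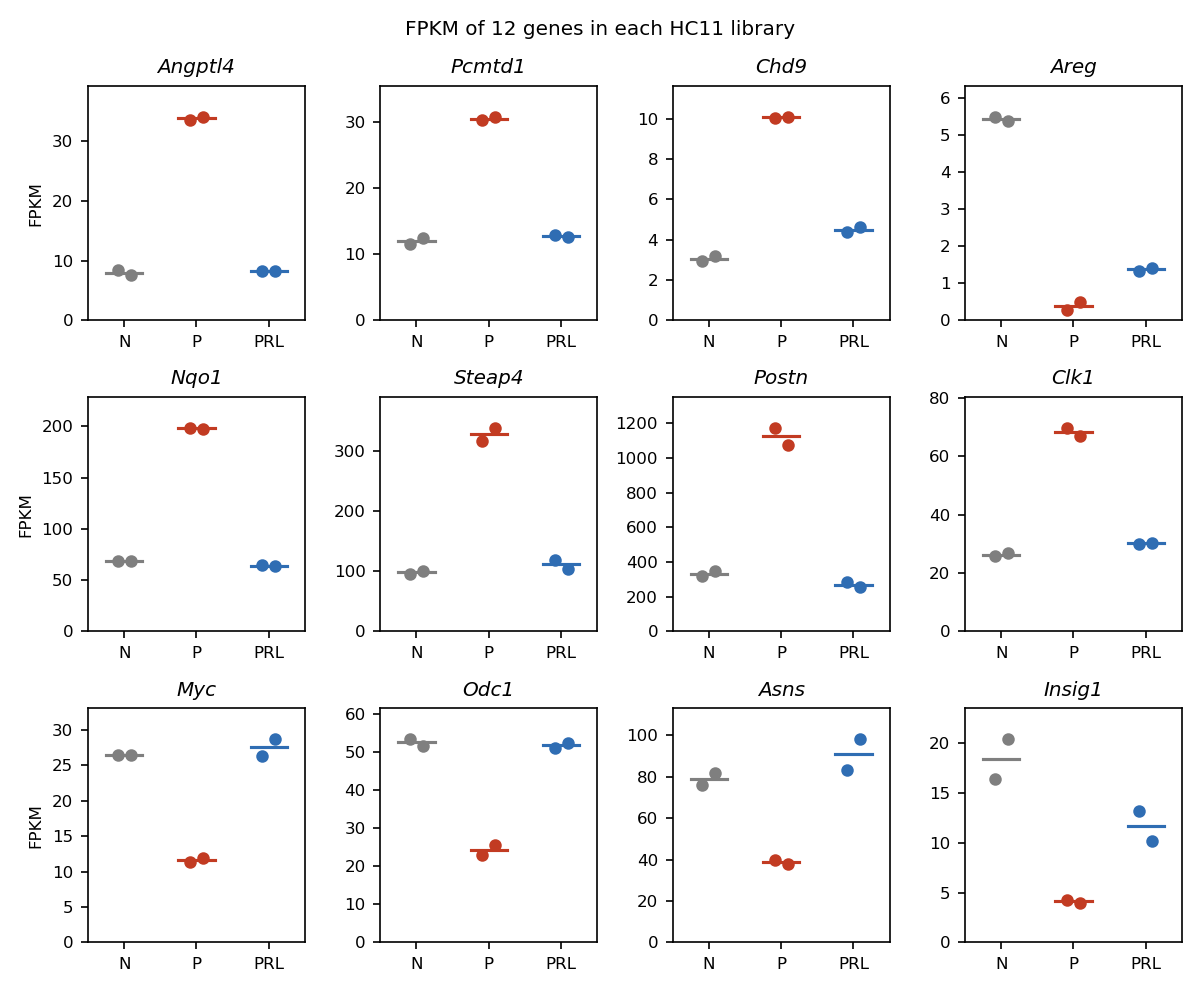
FPKM (vertical axes, from 0) of 12 genes in each library of N, P and PRL, with 1 point per library and a line at the mean of the 2. For Angptl4, Pcmtd1, Chd9, Nqo1, Steap4, Postn and Clk1 both P points sit above the N and PRL points, and for Areg, Myc, Odc1, Asns and Insig1 below them.

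Secreted and matrix proteins were among the most abundant genes that rose. Postn, a matrix protein of periosteum and stroma that binds integrins, had 317 and 348 FPKM in N, 1175 and 1074 in P and 286 and 254 in PRL, so that P was 1.76 above N and 2.06 above PRL (SE 0.08, adjusted p = 2.51e-07 and 6.41e-07, limma). Col2a1, the main collagen of cartilage, was as abundant, with 368 and 334 FPKM in N, 928 and 865 in P and 407 and 331 in PRL and differences of 1.35 and 1.29 (adjusted p = 1.49e-05 and 3.66e-05, limma). Col3a1, a fibrillar collagen of soft tissue, had 20.6 and 18.1 FPKM in N, 51 and 50.6 in P and 16.5 and 14 in PRL. That the lowest P library was above the highest library of the other states follows from the rule, and in each of these genes the margin was wide. Mme, the membrane peptidase neprilysin, which is found on basal mammary cells, had 62.4 and 69.6 FPKM in N, 182 and 184 in P and 53.3 and 52.9 in PRL. Lect1, the cartilage glycoprotein chondromodulin, had 90.3 and 108 FPKM in N, 338 and 324 in P and 179 and 151 in PRL. Mme returned fully, whereas Lect1 stayed higher in PRL than in N, at a distance of 1.01 between P and PRL. Lect1 was not called without P replicate 1 (adjusted p = 0.00369, limma), P replicate 2 (adjusted p = 0.00293, limma) or PRL replicate 2 (adjusted p = 0.0022, limma).

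Collagen genes as a family leaned to P. Of 26 tested, a list taken after the values were seen, 16 were higher in both P libraries and 0 lower, against 28.3% and 9.59% of all genes, and their median difference was 0.66 from N and 0.84 from PRL, against 0.04 and 0.19 over all genes. With quantile normalization 15 were higher and 2 lower. Called among them were Col2a1, Col3a1, Col11a1, the partner of Col2a1 in cartilage fibrils, and Col7a1, the anchoring fibril collagen under epithelia. Col11a1 had 96.3 and 97.6 FPKM in N, 215 and 211 in P and 90.6 and 68.3 in PRL, with adjusted p = 0.000499 and 0.000258 (limma). It was not called without N replicate 1 (adjusted p = 0.011), N replicate 2 (0.00998), P replicate 1 (0.00521) or P replicate 2 (0.00467, all limma). Col7a1 had 26.3 and 21.9 FPKM in N, 49 and 49.7 in P and 16.1 and 12.7 in PRL. It was not called without N replicate 2 (smaller difference 0.88), P replicate 1 (adjusted p = 0.00636, limma) or P replicate 2 (adjusted p = 0.00652, limma). The basement membrane chain Col4a5, at 32.3 and 32.2 FPKM in N, 62.3 and 66 in P and 31.4 and 27 in PRL, was just short of the threshold at 0.97 from N. The family was not uniform, since Col1a1, the main collagen of fibroblasts, had 16.7 and 16.8 FPKM in N, 1.76 and 1.48 in P and 0.422 and 0.370 in PRL and was highest in N.

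Fibroblast markers did not move together. Of 10 tested, 4 were higher in both P libraries (Postn, Col3a1, Pdgfra and Lum, of which Lum was at −0.10 with quantile normalization) and 0 lower. The share higher was 40%, against 28.3% of all genes. The summed level of the 14 in the table was 502 and 518 FPKM in N, 1273 and 1173 in P and 344 and 304 in PRL. Without Postn, itself 1 of the genes that rose, the sum of the other 13 was 184 and 171 in N, 97.4 and 98.3 in P and 58 and 50.02 in PRL, so that it was highest in N and had no peak in P. Other defining markers did not share the pattern: Col1a1 and Col1a2 were highest in N, Dcn was highest in PRL at 21.4 and 18.1 FPKM, and 1 of the 14 was at 0 in all 6 libraries. In bulk RNA fewer cells of a type and less RNA per cell cannot be told apart, and the part of such cells in the rises was not tested. Of the 8 basal markers Trp63 and Itga6 were higher in both P libraries and Krt17 was lower. Trp63, the factor that keeps basal epithelium, had 15.6 and 15.6 FPKM in N, 18 and 16.9 in P and 9.15 and 8.23 in PRL. Krt17, a keratin of basal and stressed epithelium, had 657 and 615 FPKM in N, 115 and 116 in P and 206 and 235 in PRL. Krt5 and Krt14, the defining basal keratins, were highest in N and lowest in PRL, and Krt14 had 2096 and 2058 FPKM in N, 590.0 and 618 in P and 263 and 280.3 in PRL. Of the 9 luminal markers 1 was higher, Elf5, the factor of alveolar cells, with 5.17 and 5.64 FPKM in N, 23.8 and 23.1 in P and 19.3 and 17.9 in PRL, and 1 lower, the keratin Krt8, with 239 and 228 FPKM in N, 180.4 and 185 in P and 199 and 210.5 in PRL. The markers of adipocytes, endothelial cells and immune cells had 1 tested gene each, in neither set.

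Surface proteins and regulators of growth were also among the rises. Cav1 and Cav2, the coat proteins of caveolae, both rose. Cav1 had 68 and 74.1 FPKM in N, 159 and 146 in P and 66.5 and 58.6 in PRL. Cav2 had 45.1 and 52.5 FPKM in N, 118 and 118 in P and 52.9 and 46 in PRL. Gas1, a surface protein first found in growth-arrested cells and a Hedgehog coreceptor, had 39.5 and 43.1 FPKM in N, 85.6 and 85.7 in P and 37 and 33.8 in PRL. Its distance from N was 0.98 without N replicate 1, under the threshold. Osr1, a zinc finger factor of mesenchyme, had 26.7 and 31.3 FPKM in N, 65.8 and 65.7 in P and 28.2 and 26.1 in PRL. Tle2, a Groucho corepressor, had 4.73 and 4.61 FPKM in N, 19.4 and 17.1 in P and 6.51 and 5.40 in PRL. Each of these 5 genes had PRL close to N, so that P alone was high. Zcchc5, a gene derived from a retrotransposon, had 6.57 and 6.93 FPKM in N, 88.3 and 81.9 in P and 25.8 and 22.9 in PRL. It was 3.47 above N, and PRL kept part of the rise. 

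BC006965, named only by its symbol here, had 136 and 136 FPKM in N, 383 and 355 in P and 149 and 141 in PRL. The low end of the called genes held others with the same shape. Slc22a17, a receptor of lipocalin 2, had 1.14 and 1.03 FPKM in N, 8.97 and 7.57 in P and 1.65 and 1.41 in PRL. Aldh3b2, an aldehyde dehydrogenase, had 0.476 and 0.424 FPKM in N, 4.88 and 6.09 in P and 1.59 and 1.47 in PRL. Tnfrsf25, the death receptor for TL1A, had 3.15 and 3.42 FPKM in N, 12.5 and 11.7 in P and 4.71 and 4.07 in PRL. F13a1, the A chain of coagulation factor XIII, had 1.27 and 1.26 FPKM in N, 5.32 and 6.10 in P and 1.62 and 1.36 in PRL. In all 4, P was above 4 FPKM and every other library below 5. Dmpk, the myotonic dystrophy kinase, had 5.20 and 5.24 FPKM in N, 14.1 and 12.5 in P and 5.59 and 5.36 in PRL, and Slc16a4, of the monocarboxylate transporter family, 0.960 and 1.04 FPKM in N, 5.14 and 4.05 in P and 1.43 and 1.19 in PRL. Btla and Zfp488 met the rule for large rises, but their N libraries disagreed, with 1.29 and 4.76 FPKM for Btla and 1.13 and 6.13 for Zfp488, and neither was called (adjusted p against N 0.0482 and 0.114, limma).

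Single genes of redox and metal handling rose without the rest of their lists. Nqo1, a quinone reductase, had 68.2 and 69.1 FPKM in N, 199 and 197 in P and 64.8 and 63.4 in PRL. P was 1.51 above N and 1.61 above PRL (SE 0.05, adjusted p = 2.36e-08 and 2.02e-07, limma). Nqo1 is a standard target of the oxidative stress factor NRF2, but the other 15 NRF2 targets tested (a list taken after the values were seen) did not share its order: 0 of them were higher in both P libraries and 5 were lower. With Nqo1 counted, 6.25% of the list was higher and 31.2% lower, against 28.3% and 9.59% of all genes. Ftl1, the ferritin light chain, had 1623 and 1619 FPKM in N, 965 and 957 in P and 3006 and 3234 in PRL. Gclm, the modifier subunit of glutathione synthesis, had 28.4 and 24.2 FPKM in N, 19.6 and 19.2 in P and 28.1 and 26.5 in PRL. Ftl1 can share reads with its processed copies and is uncertain to that extent. The 4 metalloreductases of the STEAP family did not share 1 direction either. Steap4 rose, with 96.4 and 100.1 FPKM in N, 317 and 339.8 in P and 119 and 105 in PRL (differences 1.73 and 1.54, SE 0.07, adjusted p = 1.26e-07 and 1.32e-06, limma). Steap1 fell, with 2.33 and 2.59 FPKM in N, 0.685 and 0.635 in P and 3.61 and 4.46 in PRL. Steap2 and Steap3 were in neither set.

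Of 7 genes of the TXNIP family and glucose sensing (a list taken after the values were seen) 3 were higher in both P libraries (42.9%, against 28.3% of all genes) and 0 lower. Arrdc4 and Txnip, alpha-arrestins that lower glucose uptake and respond to glucose through MondoA, were 2 of them. Arrdc4 rose, with 10.1 and 10.5 FPKM in N, 31.4 and 33 in P and 12.4 and 12.3 in PRL (differences 1.56 and 1.31, adjusted p = 6.65e-08 and 1.04e-06, limma). Txnip had 43.5 and 49.8 FPKM in N, 144 and 148 in P and 83.5 and 88.2 in PRL, with PRL above N, and its distance from PRL of 0.76 was under the threshold. Of 18 PPAR target and fatty acid oxidation genes tested, 6 were higher in both P libraries (33.3%) and 0 lower, a share near that of all genes. Angptl4 was the only one called. Cpt1a, which brings fatty acids into mitochondria, had 27 and 27.5 FPKM in N, 49.7 and 53.4 in P and 42.5 and 41.7 in PRL. Acadm, which oxidizes medium chains, had 44.3 and 42 FPKM in N, 79.9 and 72.4 in P and 59.5 and 58.1 in PRL. In both, PRL lay between N and P. Ogt, the enzyme that places O-GlcNAc on proteins and whose transcript is held back by intron retention, had 32.8 and 32.2 FPKM in N, 73.1 and 67 in P and 33.4 and 30.3 in PRL. Nfat5, the factor of the osmotic stress response, had 12.3 and 12.6 FPKM in N, 31.5 and 29.2 in P and 11.6 and 11 in PRL. Both rose, by 1.08 and 1.22 against N and 1.11 and 1.35 against PRL.

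Splicing regulators were mostly high in P. Of 29 splicing kinases and nuclear speckle genes 22 were higher in both P libraries (75.9%, against 28.3% of all genes) and 1 was lower, and 2 were called. Their median difference was 0.43 from N and 0.57 from PRL, against 0.04 and 0.19 over all genes, and 21 were still higher with median ratio scaling and with quantile normalization. Clk1, the kinase that phosphorylates SR proteins and controls its own splicing, had 25.7 and 26.7 FPKM in N, 69.8 and 67 in P and 30.01 and 30.2 in PRL (differences 1.35 and 1.16, SE 0.05, adjusted p = 7.49e-08 and 1.05e-06, limma). Pnisr, an SR-related protein of speckles, had 22.2 and 24.3 FPKM in N, 59.1 and 52.3 in P and 16.9 and 17.5 in PRL. Leng8, an RNA processing gene outside the list that also rose, had 21.4 and 20.3 FPKM in N, 50.4 and 46 in P and 22.6 and 18.3 in PRL. These 3 had PRL near N. Clk4, a second kinase of the family, had 21.9 and 22.5 FPKM in N, 52.6 and 45.7 in P and 35.4 and 30.2 in PRL. Srsf5, an SR protein, had 149 and 160.4 FPKM in N, 292 and 269 in P and 139 and 144 in PRL. Ccnl2, a cyclin of speckles, had 34.6 and 40.2 FPKM in N, 85.2 and 82.1 in P and 56.7 and 55.3 in PRL. None of these 3 reached a distance of 1 from both states. The list was not uniform: Srsf3, an SR protein of growing cells, had 134 and 139.8 FPKM in N, 73.7 and 70.4 in P and 58 and 60.04 in PRL, with PRL lowest.

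Nuclear noncoding RNAs had the same order in all 6 genes tested (Malat1, Neat1 and Xist among them), with 0 called. Malat1, the abundant speckle RNA, had 77.2 and 70.2 FPKM in N, 378 and 335 in P and 212 and 169.9 in PRL, a distance of 2.26 from N and 0.90 from PRL (SE 0.12). Neat1, the scaffold of paraspeckles, had 217 and 200.2 FPKM in N, 499 and 479 in P and 369 and 322 in PRL. Xist, the RNA of the inactive X chromosome, had 16.2 and 17.4 FPKM in N, 29.1 and 27.1 in P and 9.52 and 9.77 in PRL. In Malat1 and Neat1 PRL stayed above N, and in Xist it was below. The 6 kept this order with median ratio scaling, and 5 of them with quantile normalization. The deposited labels give removal of ribosomal RNA as the enrichment and the study's methods add oligo(dT) beads, so how far unspliced and nuclear RNA was retained in each library is not known, and its part in these values was not tested.

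Histone modifiers and CHD remodellers were mostly high in P by smaller distances, and other remodellers were not. Of 25 large histone modifiers 19 were higher in both P libraries (76.0%, against 28.3% of all genes), 0 lower and 0 called, with median differences of 0.42 and 0.39. With median ratio scaling 16 were higher and 0 lower, and with quantile normalization 15 and 1. Kmt2a, a methyltransferase of histone H3 lysine 4, had 7.03 and 6.35 FPKM in N, 10.8 and 10.2 in P and 5.95 and 5.35 in PRL. Kmt2d, another one, had 6.09 and 5.68 FPKM in N, 9.67 and 10.1 in P and 6.92 and 6.39 in PRL. Ash1l, a methyltransferase of lysine 36, had 6.12 and 6.55 FPKM in N, 9.92 and 9.68 in P and 6.21 and 5.96 in PRL. In these genes each distance was under 1. Of 9 CHD remodellers 7 were higher (77.8%) and 1 lower (11.1%, against 9.59% of all genes). Chd6, a close relative of Chd9, had 5.18 and 5.27 FPKM in N, 9.47 and 8.94 in P and 4.72 and 4.58 in PRL. Chd1l, the remodeller that lacks the chromodomains of the family and is recruited by poly(ADP-ribose), was lower, with 8.13 and 7.87 FPKM in N, 4.06 and 3.97 in P and 4.93 and 5.43 in PRL. Of the 16 other remodelling ATPases and large subunits 6 were higher (37.5%) and 0 lower, with medians of −0.09 from N and 0.47 from PRL. Atrx, 1 of these 6, had 9.54 and 10.6 FPKM in N, 13.7 and 15.6 in P and 3.46 and 3.77 in PRL. Zinc finger genes with the symbol Zfp, a family taken after the values were seen, had 126 of 251 higher (50.2%) and 3 lower, and 94 of them with median ratio scaling and 71 with quantile normalization.

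**Figure D3:**
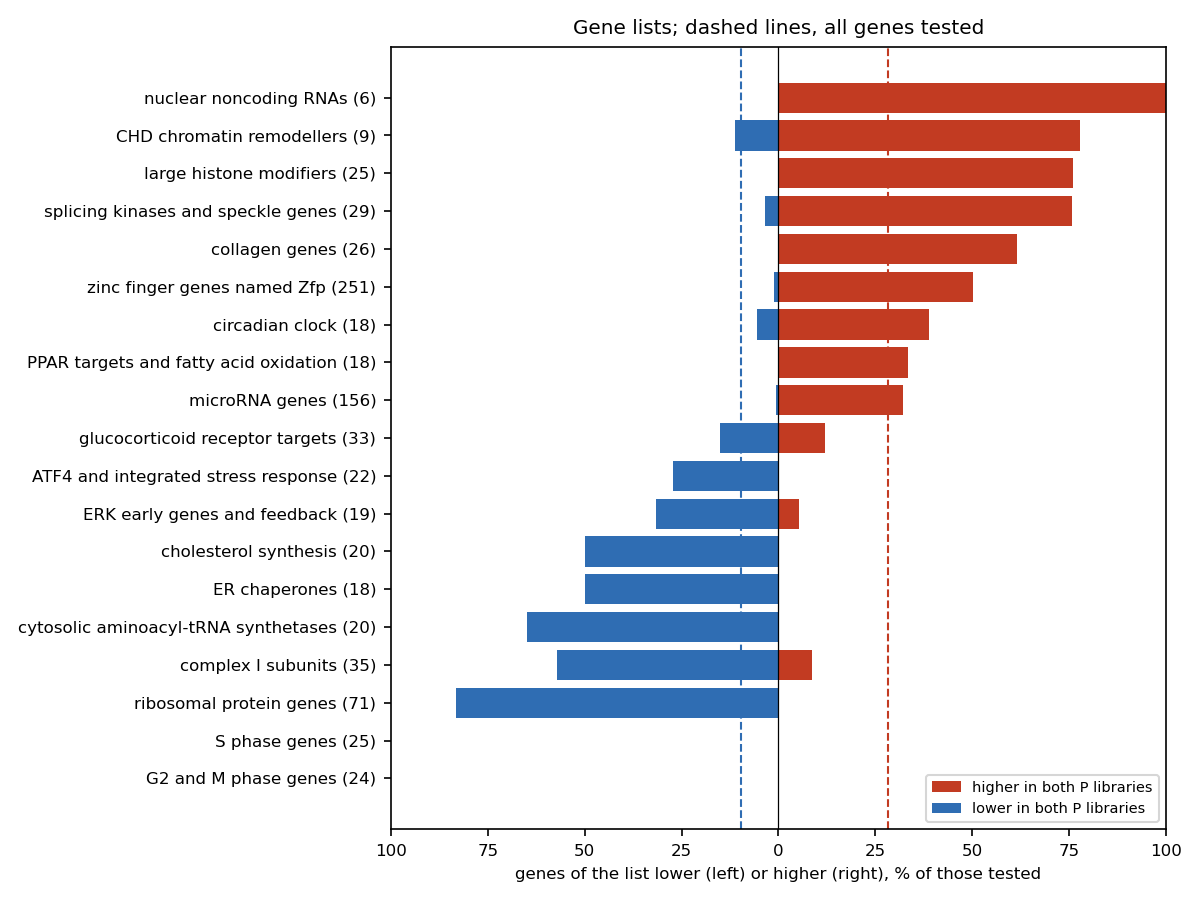
Share of the tested genes of 19 lists (number tested in parentheses) that were lower (to the left) or higher (to the right) in both P libraries than in all N and PRL libraries, in percent. Dashed lines mark the 9.59% and 28.3% of all genes tested, and speckle, histone modifier and collagen genes exceed the line on the right, and ribosomal protein and synthetase genes the line on the left.

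Genes of small RNAs were counted apart. Of 156 microRNA genes, with host transcripts left out, 50 were higher in both P libraries (32.1%, against 28.3% of all genes) and 1 lower. Of 78 snoRNA genes 21 were higher (26.9%) and 4 lower. Both shares were near that of all genes. These libraries do not measure mature microRNAs: a fragment counted at a hairpin comes from a longer transcript, its primary transcript or host. The length of such genes, inferred from the steps of their FPKM values, had a median of 75 bp, so that few fragments make a high FPKM. Of the 50, 33 lie inside a tested gene on the same strand (GENCODE, GRCm38), and for 19 of these the host was higher too (57.6%). Of the other microRNA genes 62 lie inside a tested host, which was higher for 14 of them (22.6%). The same order rule sorted microRNA genes and hosts, some hosts hold several of these genes, and some hairpins overlap a host exon. These shares are therefore a description. Mir140 rose, with 684 and 538 FPKM in N, 1799 and 1789.6 in P and 465 and 366 in PRL, resting on 1117 and 863, 3023 and 3082, and 853 and 868 fragments. It lies within Wwp2, a ubiquitin ligase gene, which had 709 and 672 FPKM in N, 1235 and 1191 in P and 557 and 519 in PRL. The pair is known to be expressed together in cartilage. Mir3064 rose as well, with 169 and 207 FPKM in N, 525 and 492 in P and 182 and 167 in PRL, resting on 264 and 317, 844 and 811, and 320 and 379 fragments. It lies within Ddx5, an RNA helicase of the microprocessor, which had 236 and 234 FPKM in N, 373 and 359.7 in P and 259 and 242 in PRL. Both hosts had the order of their microRNA genes with a smaller distance. Both hairpins overlap an exon of at least 1 annotated host transcript (GENCODE), which need not be the coding one. How reads shared by a hairpin and its host were counted is not given in the sources used here. Mir140 was not called without P replicate 1 (adjusted p = 0.00304), P replicate 2 (0.00286) or PRL replicate 2 (0.00136, all limma). Mir3064 was not called without PRL replicate 2 (adjusted p = 0.0011, limma).

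Of 4 let-7 genes tested 3 were higher in both P libraries, on few fragments. Mirlet7c-1 on chromosome 16 had 4.10 and 2.32 FPKM in N, 18.6 and 18.6 in P and 3.25 and 4.39 in PRL, resting on 9 and 5, 42 and 43, and 8 and 14 fragments. Mir99a, next to it in the noncoding host Mir99ahg, had 27 and 16.1 FPKM in N, 49.4 and 81.3 in P and 17.6 and 11.8 in PRL. Mirlet7d on chromosome 13 had 2.91 and 3.82 FPKM in N, 16.2 and 23.7 in P and 6.67 and 3.72 in PRL, and its neighbour Mirlet7f-1 rested on 0 and 2, 4 and 10, and 1 and 5 fragments. In all 4 both P libraries were above the rest, and none was called. Their hosts were not among the genes tested. Mirlet7i, the other let-7 gene, had 0.504 and 1.03 FPKM in N, 18.6 and 11 in P and 15.3 and 13.5 in PRL, resting on 1 and 2, 38 and 23, and 34 and 39 fragments, and stayed as high in PRL as in P. let-7 is the microRNA family that rises as cells differentiate and restrains Myc, Ras and Lin28. The mature sequences are shown to compare their seeds, bases 2 to 8, in capitals (RefSeq, GRCm38.p6).
mmu-let-7c-5p: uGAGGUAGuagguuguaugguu
mmu-let-7d-5p: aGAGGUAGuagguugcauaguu
mmu-let-7f-5p: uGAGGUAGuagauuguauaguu
mmu-miR-99a-5p: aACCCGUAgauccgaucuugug
mmu-miR-140-3p: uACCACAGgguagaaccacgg
mmu-miR-3064-5p: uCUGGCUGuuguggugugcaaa
The 3 let-7 arms share 1 seed, and the other 3 each have their own.

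The 8 genes that fell at priming were Myc, Odc1, Maff, Asns, Gcat, Insig1, Steap1 and Espn. That PRL was above P by at least 1 in all of them is part of the call. Myc, the growth factor response gene on chromosome 15 (61985341 to 61990361, GRCm38), had 26.4 and 26.4 FPKM in N, 11.4 and 12 in P and 26.2 and 28.8 in PRL, with PRL at the level of N (differences −1.11 and −1.17, SE 0.06, adjusted p = 7.89e-07 and 2.42e-06, limma). Odc1, ornithine decarboxylase, the first step of polyamine synthesis and a textbook target of Myc, had 53.6 and 51.6 FPKM in N, 23.1 and 25.6 in P and 51.2 and 52.6 in PRL. PRL was again at the level of N (differences −1.08 and −1.06), and without P replicate 1 its smaller difference was −0.99. Maff, a small Maf factor, had 11 and 11.6 FPKM in N, 4.56 and 4.74 in P and 23.5 and 25.4 in PRL, so that PRL was above N. Espn, an actin bundling protein, had 32.3 and 31.1 FPKM in N, 9.79 and 9.01 in P and 20.8 and 19.8 in PRL. It returned in part, and its smaller difference was −0.98 without P replicate 2 and −0.998 without PRL replicate 1. Of 19 ERK early and feedback genes tested, 1, Spred3, was higher (5.26%, against 28.3% of all genes) and 6 were lower in both P libraries (31.6%, against 9.59%). Besides Myc these were Ier3, Jun, Spry2, Fos and Junb. With 1 library left out, the smaller difference ranged from −0.19 to −0.32 in Jun and from −0.20 to −0.51 in Junb. Both were thus well short of the threshold. Ier3, an immediate early gene, had 194 and 176 FPKM in N, 99 and 103 in P and 139.9 and 149 in PRL. In Fos, the AP-1 subunit, the P libraries themselves differed, at 16.2 and 27 FPKM. Dusp6, the ERK phosphatase that reports on EGF signalling, was in neither set and was lowest in PRL, with 58.5 and 67.1 FPKM in N, 7.22 and 7.66 in P and 4.38 and 4.27 in PRL.

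Some genes of the amino acid response were low in P along with Asns. Asns, asparagine synthetase on chromosome 6, had 76.2 and 81.7 FPKM in N, 39.9 and 38 in P and 83.1 and 98.4 in PRL (differences −1.001 and −1.20, SE 0.08, adjusted p = 1.28e-05 and 1.09e-05, limma), and its smaller difference was −0.95 without N replicate 2 and −0.97 without P replicate 2, short of the threshold. Trib3, a pseudokinase that restrains ATF4, had 26.1 and 32.8 FPKM in N, 14.2 and 15.4 in P and 77.2 and 92.7 in PRL, so that PRL was far above both. Of 22 ATF4 and integrated stress response genes tested 6 were lower in both P libraries (27.3%, against 9.59%) and 0 higher, and their median difference was 0.02 from N and −0.77 from PRL. The other 4 were enzymes of serine and one-carbon metabolism. Phgdh, the first step of serine synthesis, had 129 and 133 FPKM in N, 84.4 and 89.2 in P and 113 and 128 in PRL. Shmt2, which makes glycine from serine in mitochondria, had 69.4 and 69.2 FPKM in N, 29.5 and 29 in P and 37 and 40.3 in PRL. Psat1, the second step of serine synthesis, had 91.5 and 89.4 FPKM in N, 14.8 and 15.8 in P and 16.2 and 17.8 in PRL, with PRL almost as low as P. Mthfd2, a mitochondrial folate enzyme, had 41.5 and 44.8 FPKM in N, 29.9 and 30.9 in P and 70.2 and 81.4 in PRL, with PRL the highest. Atf4 itself, at 145 and 151 FPKM in N, 146 and 147 in P and 291 and 323 in PRL, was in neither set. Gcat, which splits the threonine product aminoketobutyrate into glycine, fell too, with 11.4 and 11.8 FPKM in N, 2.72 and 2.84 in P and 7.28 and 7.74 in PRL. Ddit4, an inhibitor of mTORC1 induced by ATF4 and by glucocorticoid, had 279 and 252 FPKM in N, 143 and 137 in P and 320.5 and 355 in PRL. Eif4ebp1, the repressor of cap-dependent translation, had 154 and 156 FPKM in N, 85.2 and 82.7 in P and 184 and 206 in PRL. In both PRL was above N.

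The promoters of Asns and Trib3 are shown because both hold the CCAAT-ATF composite element TGATGNAA, the site that ATF4 is known to use, in capitals here (RefSeq, GRCm38.p6, both on the minus strand, Asns at chr6:7693160-7693459 and Trib3 at chr2:152344011-152344310).
Asns promoter: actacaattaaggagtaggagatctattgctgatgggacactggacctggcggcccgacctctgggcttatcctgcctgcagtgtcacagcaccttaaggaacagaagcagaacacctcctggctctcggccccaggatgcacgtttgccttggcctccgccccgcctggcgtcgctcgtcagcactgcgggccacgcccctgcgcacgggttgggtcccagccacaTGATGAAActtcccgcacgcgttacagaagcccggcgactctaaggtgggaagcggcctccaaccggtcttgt
Trib3 promoter: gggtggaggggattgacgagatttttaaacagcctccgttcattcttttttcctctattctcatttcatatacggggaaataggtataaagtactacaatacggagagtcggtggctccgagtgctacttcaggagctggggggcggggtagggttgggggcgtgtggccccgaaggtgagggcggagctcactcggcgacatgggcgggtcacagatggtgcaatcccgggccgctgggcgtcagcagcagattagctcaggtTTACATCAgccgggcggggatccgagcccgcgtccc
In Asns the match begins 23 bases before the annotated start, and in Trib3 it is read on the other strand and begins 14 bases after the start. Of 8749 tested genes with a promoter sequence 226 hold the motif on either strand (2.58%), and of the 21 such genes of the ATF4 list 8 do (38.1%), of which 2 are among the 6 lower in P. The share was 2.51% in the genes higher in P and 2.90% in the lower ones.

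Many sterol genes were lowest in P, most of them with PRL close to P. Of 20 cholesterol synthesis and uptake genes tested 10 were lower in both P libraries (50.0%, against 9.59%) and 0 higher, and 13 and 15 were lower with median ratio scaling and quantile normalization. The median difference was −1.06 from N and −0.10 from PRL. Insig1, the sterol-regulated brake on SREBP processing, had 16.4 and 20.4 FPKM in N, 4.30 and 3.94 in P and 13.2 and 10.1 in PRL and was the only one called (differences −1.91 and −1.30, SE 0.15, adjusted p = 4.74e-05 and 0.000419, limma). Its PRL libraries differed, and it was not called without P replicate 1, P replicate 2 or PRL replicate 1, with smaller differences of −1.35, −1.25 and −1.12. Sqle, squalene epoxidase, had 44.9 and 44.5 FPKM in N, 23.3 and 23.2 in P and 31.2 and 29.6 in PRL, a partial return. Fdps, farnesyl diphosphate synthase, had 89.6 and 90.9 FPKM in N, 23.2 and 23 in P and 24.6 and 25.9 in PRL, with PRL just above P. Fabp5, a fatty acid carrier, had 877 and 903 FPKM in N, 278 and 297 in P and 517 and 593 in PRL. Fn1, fibronectin, had 641 and 525 FPKM in N, 122 and 128 in P and 206 and 243 in PRL. Both were lower in P than in either state, short of a distance of 1 from PRL.

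**Figure D4:**
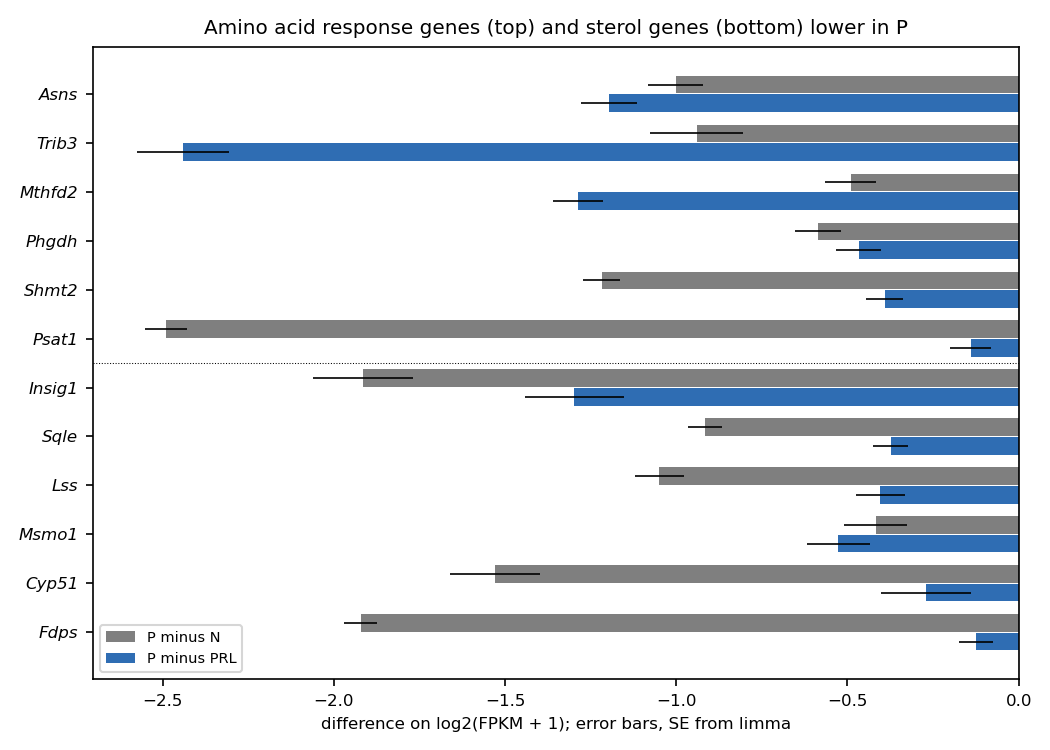
Mean difference of P from N (grey) and from PRL (blue) on log2(FPKM + 1), with the SE from limma, for 6 amino acid response genes (above the dotted line) and 6 sterol genes (below it) that were lower in both P libraries. Asns and Insig1 are at least 1 from each state, whereas Psat1 and Fdps are far from N and close to PRL.

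Machinery of protein synthesis and folding sat low in P by small amounts. Of 71 ribosomal protein genes 59 were lower in both P libraries (83.1%, against 9.59%), 0 higher and 0 called, with medians of −0.51 from N and −0.25 from PRL, and 65 with median ratio scaling but only 20 with quantile normalization. Rps3, of the small subunit, had 647 and 626 FPKM in N, 425 and 437 in P and 573 and 639 in PRL. Rpl14, of the large one, had 903 and 860.0 FPKM in N, 495 and 519 in P and 658 and 749 in PRL. Ribosomal protein genes have many near-identical copies, so their values are uncertain to the extent that reads were split. Of 20 cytosolic aminoacyl-tRNA synthetases 13 were lower (65%, against 9.59%) and 0 higher. Gars, which charges glycine, is an example, with 120.5 and 113 FPKM in N, 77.5 and 76.8 in P and 111 and 125 in PRL. Of 18 chaperones and folding factors of the endoplasmic reticulum 9 were lower (50%) and 0 higher. Hspa5, the main chaperone there, is an example, with 385 and 381 FPKM in N, 254 and 262 in P and 379 and 531 in PRL. The PRL libraries of Hspa5 differed, and its adjusted p was 0.0246 and 0.0085 (limma). Of 35 subunits of respiratory complex I 20 were lower (57.1%) and 3 higher (8.57%). Of 76 mitochondrial ribosomal protein genes 24 were lower (31.6%) and 0 higher. With quantile normalization 14 synthetases, 7 chaperones, 14 complex I subunits and 35 mitochondrial ribosomal protein genes were lower, against 17.9% of all genes. Of 35 proteasome subunits 2 were lower (5.71%, under the 9.59% of all genes) and 0 higher. With median ratio scaling 18 of them were lower, and with quantile normalization 3, against 18.4% and 17.9% of all genes. These 6 families were taken after the values were seen.

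Glucocorticoid targets were mostly not a matter of P alone. Of 33 tested 4 were higher (12.1%, against 28.3% of all genes) and 5 lower (15.2%, against 9.59%) in both P libraries. Their median difference was 0.96 from N and −0.51 from PRL. Fkbp5, the standard reporter of the receptor, had 9.95 and 8.41 FPKM in N, 86 and 84.9 in P and 249 and 228 in PRL. Tsc22d3, which encodes GILZ, had 8.36 and 11.7 FPKM in N, 115 and 117 in P and 192 and 188 in PRL. Both were highest in PRL. The 4 higher were Angptl4, Txnip, Tgm2 and Pik3r1, the regulatory subunit of PI3 kinase, which had 11.1 and 12 FPKM in N, 67.7 and 62.2 in P and 57.8 and 50.4 in PRL. The 5 lower were Ddit4, Mt1, Mt2, Sgk1 and Cdkn1a. Mt1, a metallothionein that responds to metal as well as hormone, had 1148 and 1147 FPKM in N, 863 and 878 in P and 2110.1 and 2459 in PRL. Sgk1, a kinase of sodium transport, had 69.4 and 73.8 FPKM in N, 46.9 and 49 in P and 68.3 and 72.9 in PRL. PRL was highest for Mt1 and level with N for Sgk1.

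Of 22 tested genes that the study names for the primed state, 9 were higher in both P libraries (40.9%, against 28.3% of all genes) and 1, Myc, lower (4.55%, against 9.59%). Only Chd9 and Myc were called. Krt15, a keratin of progenitor cells, had 15.4 and 18.2 FPKM in N, 341 and 322 in P and 179.6 and 178 in PRL. Ogn, a small proteoglycan, had 0.101 and 0.103 FPKM in N, 38.6 and 36.9 in P and 27.1 and 21.4 in PRL. In both PRL lay between N and P. Prlr, the prolactin receptor, had 1.23 and 1.18 FPKM in N, 1.71 and 2.28 in P and 0.623 and 0.536 in PRL. Id2, an inhibitor of helix-loop-helix factors, had 92.9 and 102 FPKM in N, 137 and 124 in P and 84.9 and 91.3 in PRL. In these PRL was at or below N. Cyp2f2, a cytochrome P450, was in neither set, with 0.0942 and 0.120 FPKM in N, 28.1 and 28.9 in P and 85.9 and 80.7 in PRL. The list was chosen by the study on these samples and is no independent evidence.

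Of 25 S phase and 24 G2 and M phase genes 0 were in either set, with medians of −1.83 and −3.06 from N and 0.76 and 1.47 from PRL, so that the medians stepped down at each change. The circadian clock had 7 of 18 higher (38.9%) and 1 lower. Clock, its activator, had 11 and 12.6 FPKM in N, 20.3 and 19.99 in P and 6.02 and 5.82 in PRL. Per3, of the period repressors, had 5.46 and 5.72 FPKM in N, 12.4 and 11.5 in P and 7.55 and 7.13 in PRL. Bhlhe40, a repressor, was the lower one, with 53 and 53.7 FPKM in N, 41.7 and 41.8 in P and 180.1 and 181 in PRL. The following shares are to be read against the 28.3% higher and 9.59% lower of all genes, and most are near them. The prolactin receptor and STAT5 pathway had 6 of 14 higher and 0 lower. FOXO targets had 7 and 4 of 20 (35% higher and 20% lower), and 2 and 4 with median ratio scaling. Interferon response genes had 6 and 1 of 17 (35.3% higher) and the Notch pathway 5 and 0 of 15 (33.3% higher). Dll1, a Notch ligand, had 3.85 and 3.48 FPKM in N, 6.90 and 7.38 in P and 3.38 and 2.85 in PRL. BMP and TGF-beta response genes had 5 and 0 of 17, with Fst, the activin antagonist follistatin, at 29.9 and 30.5 FPKM in N, 76.4 and 76.2 in P and 41.4 and 40.6 in PRL. CCN and YAP targets had 4 and 0 of 14, Wnt targets and antagonists 2 and 0 of 11, chemokines and cytokines 3 and 1 of 12, snoRNA host genes 4 and 0 of 11, milk protein genes 1 and 0 of 8, and angiopoietin-like proteins with their partners 1 and 0 of 4. Il18, a cytokine outside these lists, had 3.91 and 3.83 FPKM in N, 15.7 and 15.2 in P and 7.32 and 5.38 in PRL. It rose but was not called without P replicate 1, P replicate 2 or PRL replicate 2. Within the cytokine list Il1rn, the antagonist of the interleukin 1 receptor, was called. Il1rn had 0.733 and 0.844 FPKM in N, 3.53 and 3.73 in P and 0.794 and 0.745 in PRL. It reached 1 FPKM in the P libraries alone, as did Gbgt1 and 5031434O11Rik among the 62 called genes and 114 of the 3333 higher ones. Such genes entered the test only through the state where they are high, so their calls are no support, and Il1rn was not tested without either P library.

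Exon length, inferred from the steps of the FPKM values, and level varied with the sets. Exon length was longer in the higher genes, with a median of 3408 bp, and shorter in the lower ones, with 1946 bp, against 2800 bp over all genes tested. In 5 classes of equal size, from the shortest genes to the longest, the share higher in P was 18.7%, 23.1%, 26.2%, 31.2% and 42.2%, and the share lower was 16.8%, 12%, 9.98%, 5.98% and 3.18%. The median of P minus N went from −0.05 in the shortest class to 0.15 in the longest, and that of P minus PRL from 0.06 to 0.33. Level went the other way: of 5 classes by mean FPKM, the lowest had 32.4% higher and 3.18% lower, and the highest 18.5% and 21.1%. Histone modifiers (median 7507 bp), CHD remodellers (8190 bp), collagen genes (5552 bp) and nuclear noncoding RNAs (4979 bp) are long and ribosomal protein genes (703 bp) short, so length moved with these lists, and its part in their counts was not tested. The kit used does not mark strand, so that reads of overlapping genes on opposite strands cannot be told apart.

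**Figure D5:**
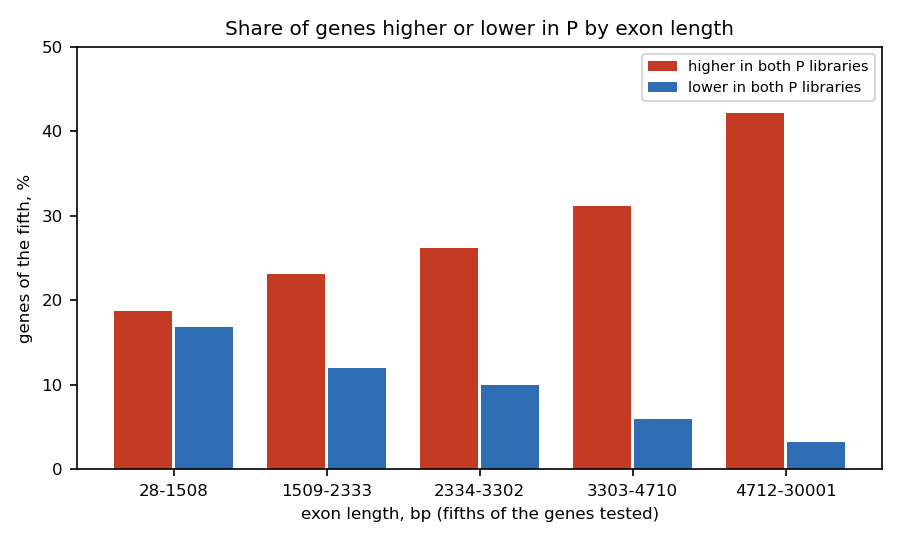
Share of genes (vertical axis, percent) that were higher (red) or lower (blue) in both P libraries, by exon length in bp (horizontal axis). The 5 classes of near equal size hold the tested genes with an inferred exon length. The red bars go from 18.7% to 42.2% and the blue bars from 16.8% to 3.18%.

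ESC were compared as a state the rule did not use. Of the 62 genes that rose, 34 averaged 1 FPKM or more over the ESC libraries, against 10388 of all 11791 genes tested, and in 58 both ESC libraries were below both P libraries, against 5752 of all genes. These genes were chosen for high values in P, so a raised share below P follows from the choice. In 43 of them, against 4048 of all genes tested, ESC was below all 6 HC11 libraries, and Postn, at 0.248 and 0.0254 FPKM in the 2 ESC libraries, is an example. The 8 genes that fell were all above 1 FPKM in ESC, and in 6 both ESC libraries were above both P libraries, against 4739 of all genes, which here too follows in part from the choice, as in Asns (575 and 476 FPKM) and Odc1 (195 and 234). ESC and HC11 cells differ in origin and culture and the ESC were grown on fibroblast feeder cells, so these values are a description.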

How the data were processed

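The 6 HC11 libraries and the 2 ESC libraries came from paired-end RNA-seq (NEBNext Ultra RNA kit) after removal of ribosomal RNA and, per the study's methods, oligo(dT) enrichment. The authors trimmed reads with Trimmomatic, mapped them to mm10 with TopHat2, counted fragments per gene with featureCounts and deposited FPKM values for each library. The annotation and strand setting are not given in the sources used here. The deposited comparison tables of the authors (DESeq2 log2 fold changes, standard errors, p-values, adjusted p-values and mean counts) were not used, and 0 columns of per-library values were left out. The low FPKM values stepped in whole fragments (16933 of 16933 genes above 0 in at least 3 libraries, within 0.05 fragments, against 1 of 300 control genes with random scaling), which gave the depth of each library. Exon lengths and fragment numbers were inferred in the same way. The length of a gene was the smallest that made its values whole fragments. It can be too short: Mir330 got 49 bp, though its hairpin spans chr7:19181465-19181562.

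Genes with at least 1 FPKM in at least 2 of the 6 libraries were tested on log2(FPKM + 1), a scale that understates the changes of low genes, with limma 3.58.1 (statmod 1.5.0, R 4.3.3), with 1 mean per state, intensity trend and robust moderation, on 3 residual degrees of freedom. P was compared with N and with PRL, with p-values adjusted over all 11791 genes by Benjamini-Hochberg. A gene was called when both distances were at least 1 in the same direction at an adjusted p under 0.001. Order and calls were computed in R. Inferred lengths and the counts in lists were computed with Python 3.11.15 (pandas 2.3.3, numpy 2.4.6), and figures were drawn with matplotlib 3.10.9. The fit was tested on simulated data.

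The members and gene lists were chosen with earlier results of these data known. The genes named were the 4 markers, the 20 largest distances upward among members averaging 10 FPKM or more in P, the 15 largest downward among those averaging 10 FPKM or more in N and PRL, and, from each list, up to 4 members with the largest distance and up to 3 others with the highest level, and genes the study names. Genes of small RNAs were left out of these rankings, and the other genes named (among them Lect1, Gas1, Osr1, Cav1, Ogt, Leng8, Steap1, Gcat, Wwp2, the microRNA genes and examples from the families) were chosen after their values were seen. Coordinates and sequences are from RefSeq (GRCm38.p6), in which 11747 genes were placed and 8749 had a promoter sequence (250 bases before to 50 after the start), and microRNA hosts from GENCODE vM21.

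Alternatives were pseudocounts of 0.5 and 0.1, no filter and a minimum of 5 FPKM, an adjusted p of 0.05, moderation without trend, median ratio scaling, quantile normalization, a fit with all 8 libraries, a replicate block and leaving out each library.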

Additional observations from a re-analysis of the deposited data

How the results depend on the processing

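The count of 62 genes that rose became 109 with a pseudocount of 0.1 and 29 in a fit that included the ESC libraries, and ranged from 45 to 81 when 1 library was left out. The 8 that fell became 14 and 18 with pseudocounts of 0.5 and 0.1, 16 with quantile normalization and 5 with the ESC libraries in the fit, and ranged from 6 to 10. The 3333 higher genes became 2162 with quantile normalization and ranged from 3471 to 3718 with 1 library left out. The 1131 lower genes became 2175 with median ratio scaling and 2111 with quantile normalization, and ranged from 1225 to 1449. Against the mean of N and PRL, 277 genes were higher, 541 with a pseudocount of 0.1 and 249 to 332 with 1 library left out, and 82 were lower, 180 with quantile normalization, 53 with the ESC libraries in the fit and 68 to 83 with 1 library left out. For the other alternatives run, the counts stayed within 1.5 times. The distance of Lum from its nearer state turned to −0.10 with quantile normalization. Whether the replicate numbers pair the samples is not stated. Across genes, the deviations of libraries with the same number had correlations of −0.03, 0.04 and 0.08 between states. With 2 libraries in a state these values cannot show that the libraries were unpaired. With the number as a replicate block 66 genes were higher and 7 lower than both states, and 285 and 81 differed from their mean. The cause of these shifts was not tested. With 2 libraries in a state, 1 library sets much of the error, and at about 0.04 FPKM per fragment in a 1 kb transcript, genes near 1 FPKM rest on few fragments.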
